A study of Rattus norvegicus with 71 samples.

Results

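The second sequencing batch held 9 rat offspring exposed in utero to maternal autoantibodies of the LDHA/B+CRMP1+STIP1 pattern and 12 offspring of saline controls, and these 21 animals, chosen by their labels alone, are described here out of 71 in the series. The exposed animals came from 5 litters (4 males and 5 females) and the controls from 4 litters (6 males and 6 females). All were wild-type Sprague-Dawley rats taken at postnatal day 2. Before pregnancy, the exposed dams were immunized in Freund's adjuvant with peptides of lactate dehydrogenase A and B, collapsin response mediator protein 1 and stress-induced phosphoprotein 1, and control dams were given the adjuvant with saline. RNA came from a coronal slice of 150 µm with the hippocampal formation and the cortex and subcortical tissue beside it. Offspring within a litter share a dam. The exposed litters gave 2 animals each, save dam 9_24 with 1, whereas controls were 2 animals from dams 9_5 and 9_15, 4 females from dam 9_10 and 4 males from dam 9_25. The study's allocation lists place these animals in a later litter of their dams, while its methods describe sequencing of first litters, and this difference was not settled here.

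As background, maternal IgG crosses the placenta and can reach the fetal brain, and in some mothers of autistic children it binds proteins that neurons need. LDHA and LDHB are the subunits that interconvert pyruvate and lactate. CRMP1 carries semaphorin signals to the cytoskeleton of growing axons and migrating neurons, and STIP1 hands client proteins from HSP70 to HSP90 and is also secreted. Since the antibodies are directed at proteins, the RNA of the same genes need not change.

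Libraries held between 24880182 and 35141768 counts in exposed animals and between 26191426 and 34323510 in controls, a mean difference of 810503 counts (exact permutation test, two-sided, p = 0.497, n = 9 and 12). Levels are given as CPM, counts per 1000000 counts of a library after TMM scaling, and 1 CPM was worth between 24.4 and 35.2 counts. Markers of cortical and hippocampal neurons were abundant in every slice, with a summed level of 2039 to 2878 CPM in exposed animals and 1882 to 2664 in controls. Slices differed in what else they held. Summed Hox genes, which mark hindbrain and spinal cord, reached 25.4 CPM in the female of dam 9_9 and 50.2 and 166 CPM in the male and female of dam 9_14, against at most 2.05 CPM in the other exposed animals and 8.22 CPM in controls. Summed thalamic markers were 547 and 490 CPM in the male and female of dam 9_4 and 769 CPM in the animal of dam 9_24, whereas the other 6 exposed animals lay between 1167 and 1616 CPM and controls between 897 and 1762 CPM. Results that rest on these slices are given with and without them. In the male of dam 9_4, the X-linked LOC100911498, at 403 to 2235 CPM in females and at most 3.04 CPM in 8 of the males, was at 214 CPM (19.4 CPM in the male of dam 9_9), and the Y-linked Eif2s3y was at 49.01 CPM against 67.8 to 81.8 CPM in the other males. Whether this library holds RNA of another animal was not tested.

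**Figure D1:**
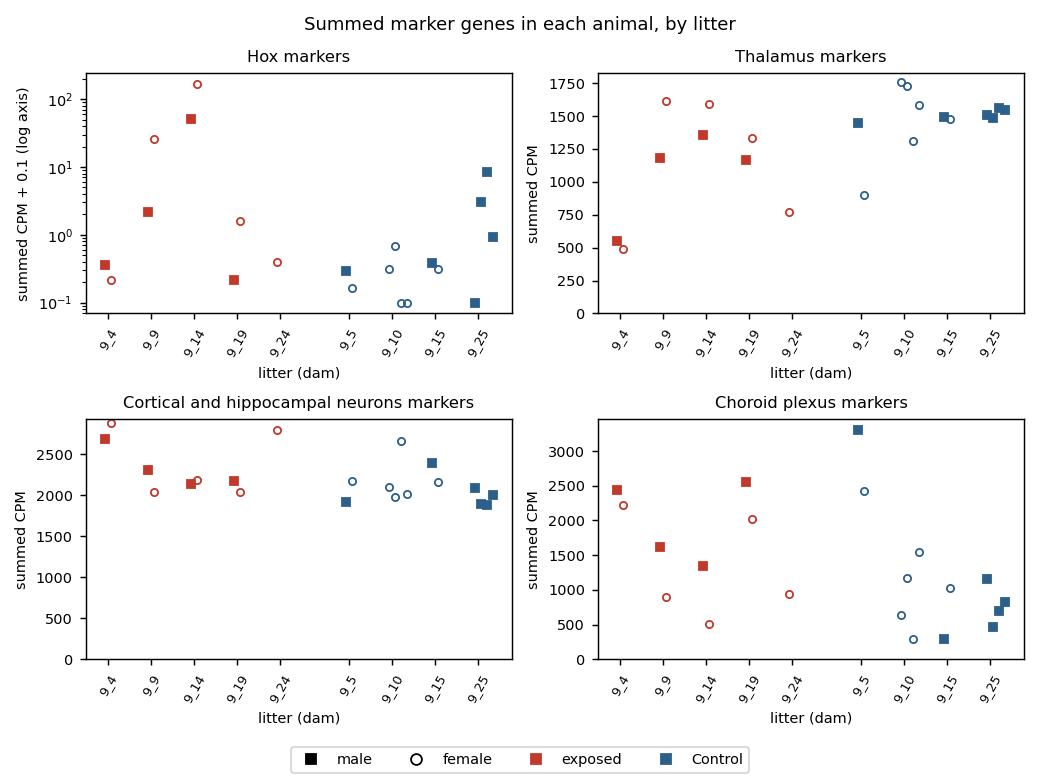
Summed level of Hox, thalamic, cortical and hippocampal, and choroid plexus marker genes (CPM) in each animal, by litter. Each point is an animal, with exposed litters in red, control litters in blue, filled squares for males and open circles for females. Hox genes stand high in 3 exposed slices of dams 9_9 and 9_14, thalamic genes low in those of dams 9_4 and 9_24, and choroid plexus genes range widely in both groups.

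The question of the main comparison was which genes differ between exposed and control pups of the same batch. No gene did so at FDR < 0.1 (edgeR quasi-likelihood test with sex as a covariate, Benjamini-Hochberg adjustment over 12570 genes, smallest adjusted p 0.146). At unadjusted p < 0.05 there were 706 genes or 5.62%, of which 382 (3.04%) had the higher mean in exposed animals and 324 (2.58%) the lower. DESeq2 also called 0 genes, with 754 at unadjusted p < 0.05. Fits that take the litter into account held fewer genes at unadjusted p < 0.05, 147 (1.17%) with counts summed per litter and 149 (1.19%) with the litter as a random effect, where the correlation between littermates was estimated at 0.493, and both called 0 genes at FDR < 0.1. The count of 706 became 1662 of 12526 genes (13.3%) without the 3 Hox slices, 253 of 12534 (2.02%) without the litters of dams 9_4 and 9_24, 360 of 12492 (2.88%) without both and 427 without the male of dam 9_4. The counts of the lists below are to be read against these shares of all genes. The values of the 9 exposed and 12 control animals were fully separated for 0 genes in either direction (0% of the genes tested). The 95% interval of a gene's log2 fold change, with animals as replicates, reached a median of 0.18 to either side (quartiles 0.13 and 0.29). This width belongs to unadjusted p-values and is no limit of detection at FDR < 0.1. Of the 706 genes, 620 had a log2 fold change of less than 0.5 in size. The genes below are therefore described by their values, and their p-values are unadjusted unless named otherwise.

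The genes of the target antigens had nearly the same level in both groups. Of the 4 genes, 0 had p < 0.05, and their median log2 fold change was -0.02 against 0.00 over all genes tested. Ldha (chr1:97371823-97381242 in build rn7), the muscle-type subunit, ranged from 268 to 367 CPM with a median of 325 in exposed animals and from 289 to 393 CPM with a median of 327 in controls (log2 fold change -0.05, 95% interval -0.19 to 0.09). Ldhb (chr4:175428382-175446403), the heart-type subunit, ranged from 184 to 264 CPM with a median of 236 in exposed animals and from 193 to 261 CPM with a median of 235 in controls (-0.04, interval -0.18 to 0.10). In both genes the lowest exposed values were in the male of dam 9_9 and the animal of dam 9_24, and the groups overlapped over nearly their whole range. Crmp1 (chr14:73509933-73556177) ranged from 2258 to 3048 CPM with a median of 2409 in exposed animals and from 2250 to 2737 CPM with a median of 2359 in controls (0.03, interval -0.08 to 0.13). The highest exposed values were in the pups of dam 9_4, whose slices also had the fewest thalamic markers. Stip1 (chr1:204209435-204228449) ranged from 175 to 223 CPM with a median of 209 in exposed animals and from 189 to 238 CPM with a median of 200 in controls (0.00, interval -0.10 to 0.11). These intervals leave room for changes of up to 0.19 on the log2 scale. They take animals as replicates, although the correlation between littermates was estimated at 0.493. With the litter as the unit they are therefore no bound, and a larger change is not excluded. Partner genes gave a like picture, since among 19 genes of glycolysis and 20 tested genes of the HSP90 and HSP70 chaperone system, 0 had p < 0.05 (medians -0.04 and -0.02). The glycolytic enzyme with the smallest p was Aldoa, aldolase A, at 396 to 588 CPM in exposed animals and 487 to 586 CPM in controls (-0.13 ± 0.06 SE, p = 0.0551). Of 23 tested genes of semaphorin and growth cone signalling around CRMP1, only Plxna2, a semaphorin co-receptor, had p < 0.05, with a median of 282 CPM in exposed animals and 256 CPM in controls (0.21 ± 0.09 SE, p = 0.0226).

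**Figure D2:**
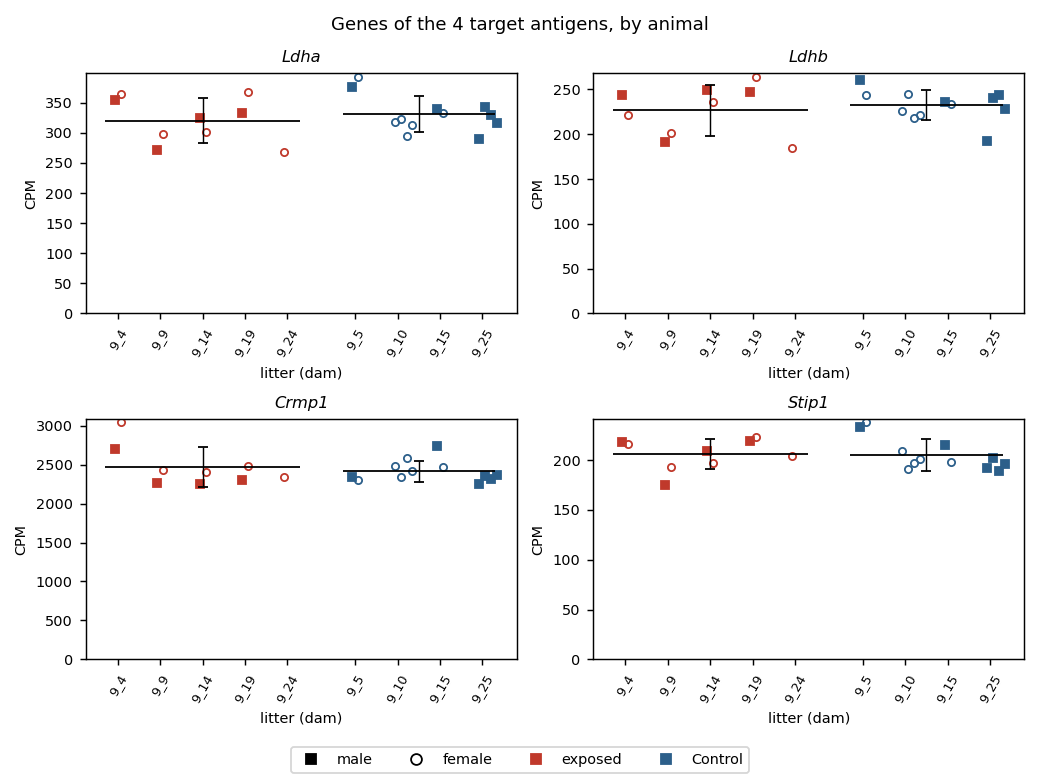
Level in CPM of Ldha, Ldhb, Crmp1 and Stip1, the genes of the target antigens, in each animal by litter. Points are animals (exposed red, control blue, males filled, females open), horizontal lines are group means and bars 1 SD. The group means lie within 1 SD of each other in each of the 4 genes.

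Hox genes apart, the smallest p-values for a higher mean in exposed animals were led by Vegfd (chrX:30074163-30108000), which encodes a growth factor of lymphatic vessels. It ranged from 1.29 to 4.01 CPM with a median of 2.14 in exposed animals and from 0.548 to 1.58 CPM with a median of 1.28 in controls (log2 fold change 0.96 ± 0.22 SE, p = 2.27e-04, adjusted p = 0.690). Of the 9 exposed animals, 8 lay above the highest control, and the 3 highest were the pups of dams 9_4 and 9_24. Without these litters Vegfd still had p = 0.0137, and with counts summed per litter p = 0.00769. Lnx2 (chr12:8005227-8070494), a ubiquitin ligase that binds the Notch regulator Numb, ranged from 17.8 to 26.4 CPM with a median of 23.2 in exposed animals and from 15.998 to 20.2 CPM with a median of 18.2 in controls (0.31 ± 0.07 SE, p = 2.74e-04, litter sums p = 0.00686). Here 6 exposed animals lay above the highest control, the high values came from each of the 5 litters, and the difference was as large without the slices that stood apart (0.33, p = 0.00387). Pag1, an adaptor that holds the kinase Csk at the membrane, ranged from 6.06 to 10.5 CPM with a median of 8.26 in exposed animals and from 5.21 to 7.97 CPM with a median of 6.45 in controls (0.37 ± 0.10 SE, p = 8.17e-04).

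Klhl14, a Kelch-family protein of specific neuron classes, and Tgfb2, a transforming growth factor of developing neurons and glia, were highest in the litters of dams 9_4 and 9_24. Klhl14 was at 17.6, 25.8 and 16.3 CPM in the 3 pups of these litters, at 9.82 to 13.3 CPM in the other exposed animals and at 7.78 to 11.8 CPM in controls (0.56 ± 0.14 SE, p = 4.67e-04). Tgfb2 was at 79.2, 91.3 and 86.7 CPM in the same pups, at 56.7 to 65.5 CPM in the other exposed animals and at 39.9 to 61.5 CPM in controls (0.36 ± 0.09 SE, p = 5.67e-04). Without the male of dam 9_4 alone, whose library is described above, Vegfd, Klhl14 and Tgfb2 had log2 fold changes of 0.81, 0.49 and 0.33 (p = 9.60e-04, 0.00173 and 0.00179). Leaving out both litters and the Hox slices together left Klhl14 and Tgfb2 at log2 fold changes of 0.25 (p = 0.0688) and 0.13 (p = 0.199). The remaining genes of this direction were Cilp2, Zfp799, the zinc transporter Slc39a7 and Bckdk, the kinase that restrains breakdown of branched-chain amino acids, with log2 fold changes of 0.23, 0.19, 0.13 and 0.21 and between 3 and 5 exposed animals above the highest control.

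Among genes with the lower mean in exposed animals, Dld (chr6:47904153-47924814), the E3 subunit that pyruvate dehydrogenase shares with other dehydrogenase complexes, ranged from 104 to 123 CPM with a median of 115 in exposed animals and from 117 to 133 CPM with a median of 126 in controls (-0.13 ± 0.04 SE, p = 0.00101, litter sums p = 0.0310). Of the 9 exposed animals 0 reached the control median and 5 lay under the lowest control. Without the slices that stood apart the difference was -0.20 (p = 7.47e-04). Dlat, the E2 subunit of pyruvate dehydrogenase, ranged from 61.4 to 75.1 CPM with a median of 67.8 in exposed animals and from 68.0 to 81.2 CPM with a median of 77.0 in controls (-0.15 ± 0.04 SE, p = 0.00334, litter sums p = 0.0929). Micu2 (chr15:32064872-32146848), a gatekeeper of the mitochondrial calcium uniporter, ranged from 92.1 to 135 CPM with a median of 104 in exposed animals and from 110 to 142 CPM with a median of 132 in controls (-0.25 ± 0.07 SE, p = 0.00120). Its 6 exposed animals below the lowest control came from dams 9_4, 9_9, 9_14 and 9_24, while the pups of dam 9_19 lay inside the control range. Sdha, the flavoprotein of complex II, had a median of 159 CPM in exposed animals and 180 CPM in controls (-0.13 ± 0.04 SE, p = 0.00614), but it was the only gene with p < 0.05 among 71 tested genes of the respiratory chain (1.41% against 5.62% of all genes), whose median log2 fold change was 0.00.

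Other genes of this direction included Psmd1, a large subunit of the proteasome cap, which ranged from 207 to 255 CPM with a median of 232 in exposed animals and from 239 to 265 CPM with a median of 253 in controls (-0.13 ± 0.04 SE, p = 0.00212). Of the 9 exposed animals 7 lay under the lowest control. N6amt1, a methyltransferase, was at 5.96 to 8.72 CPM against 6.96 to 10.4 CPM (-0.29 ± 0.08 SE, p = 0.00192), and its difference was larger without the slices that stood apart (-0.44, p = 0.00247). RGD1305464, Rps6kl1, Rhov, Plppr4, Mybph, Tmem135 and RGD1307461 had log2 fold changes from -0.35 to -0.15, and in each of them the exposed and control values overlapped. Plppr4 encodes a lipid phosphatase-related protein of excitatory synapses and ranged from 135 to 188 CPM in exposed animals and from 151 to 203 CPM in controls.

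**Figure D3:**
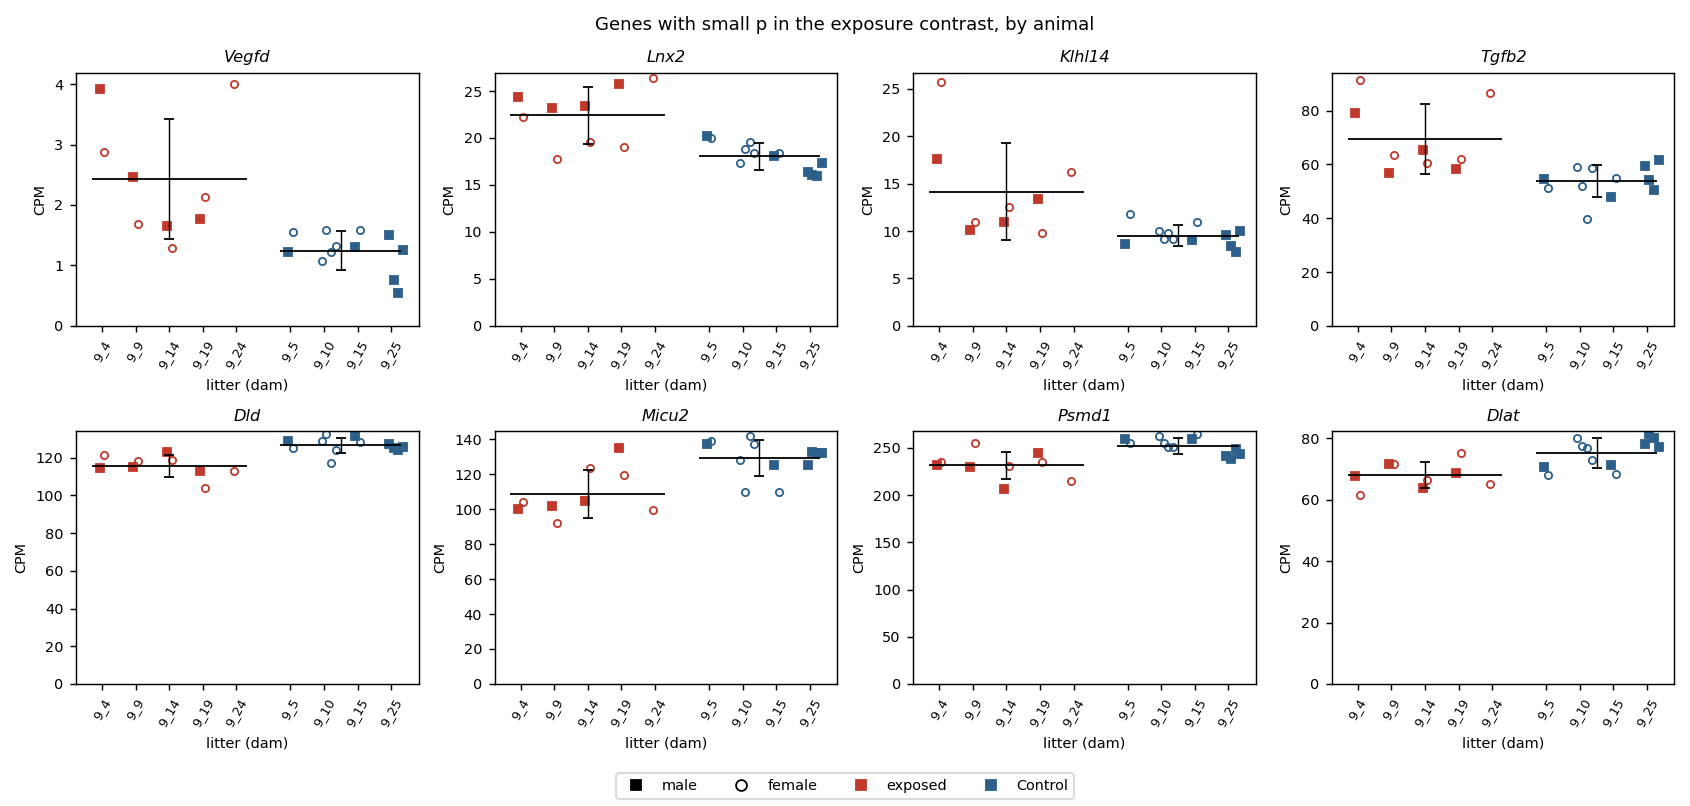
Level in CPM of 4 genes with the higher and 4 genes with the lower mean in exposed animals, each animal by litter. Points are animals (exposed red, control blue, males filled, females open), horizontal lines are group means and bars 1 SD. Vegfd, Klhl14 and Tgfb2 are highest in dams 9_4 and 9_24, Lnx2 is high in each exposed litter, and Dld is below the control median in all 9 exposed animals.

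With counts summed per litter (5 against 4 litters), the smallest p-values beside those already given belonged to Itgb4, an integrin of hemidesmosomes (0.40 in the animal-level fit, litter p = 0.00588), Retreg1, a receptor for turnover of the endoplasmic reticulum (-0.19, litter p = 0.0110), and the lysosomal membrane protein Lamp1 (-0.19, litter p = 0.0140). The lower list also held En2, Foxa2 and Slc6a3, genes of midbrain dopamine neurons. Slc6a3, the dopamine transporter, reached 18.04, 7.11 and 2.10 CPM in 3 control slices and was at most 0.491 CPM in the exposed animals. Foxa2 reached 1.84 to 2.45 CPM in the same 3 slices and was at most 0.190 CPM in the other controls and in exposed animals. These differences rest on few slices.

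The list of CREB and BACH factors, regulators of transcription in response to activity and to oxidative stress, also holds enzymes such as Gclm. Of its 18 tested genes 5 had p < 0.05, each with the higher mean in exposed animals (27.8% of the list against 5.62% of all genes). The list's median was 0.02. With counts summed per litter 3 of the 18 genes had p < 0.05, and with the litter as a random effect 2. The study chose several of these genes on the same animals, so the list is not independent evidence of their direction. Promoters of 3 of the 5 genes are shown because BACH1 and its partners, among them the small Maf protein MAFK, bind antioxidant response elements, and Gclm, the regulatory subunit of glutamate-cysteine ligase, is a classical target of them. RefSeq promoters (build GRCr8) run from 250 bases before to 50 bases after the start, and capitals mark each match to the core TGACNNNGC on either strand:
Gclm, chr2:213031885-213032184, plus strand: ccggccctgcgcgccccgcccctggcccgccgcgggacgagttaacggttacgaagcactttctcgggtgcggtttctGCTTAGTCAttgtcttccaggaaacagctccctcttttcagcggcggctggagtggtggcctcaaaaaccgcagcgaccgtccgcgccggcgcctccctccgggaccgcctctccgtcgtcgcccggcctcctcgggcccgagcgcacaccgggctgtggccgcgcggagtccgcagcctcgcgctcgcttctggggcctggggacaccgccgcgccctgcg
Mafk, chr12:19959143-19959442, minus strand: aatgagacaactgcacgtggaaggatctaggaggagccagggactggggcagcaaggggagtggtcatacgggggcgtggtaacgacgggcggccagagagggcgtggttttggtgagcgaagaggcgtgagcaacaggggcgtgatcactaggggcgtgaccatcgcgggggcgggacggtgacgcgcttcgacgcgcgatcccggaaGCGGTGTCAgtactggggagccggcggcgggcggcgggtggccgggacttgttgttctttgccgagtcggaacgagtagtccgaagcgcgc
Creb1, chr9:73397259-73397558, plus strand: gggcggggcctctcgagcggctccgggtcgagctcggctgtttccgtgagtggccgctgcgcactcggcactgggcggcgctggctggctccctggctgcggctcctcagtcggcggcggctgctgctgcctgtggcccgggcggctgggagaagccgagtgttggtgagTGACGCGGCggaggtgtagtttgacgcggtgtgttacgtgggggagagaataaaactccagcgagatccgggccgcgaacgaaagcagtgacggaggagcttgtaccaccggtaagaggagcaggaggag
The core was found in 3 of 6 promoters of these 5 genes (Bach1, Bach2 and a downstream start of Creb1 had none) and in 12.1% of 33469 promoters of the same length. The cyclic AMP response element TGACGTCA was in 0 of the 6 and in 1.83% of all promoters. A match is a description of letters and not of binding.

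Gclm ranged from 18.4 to 24.2 CPM with a median of 23.1 in exposed animals and from 17.5 to 21.5 CPM with a median of 19.5 in controls (0.20 ± 0.06 SE, p = 0.00350, litter sums p = 0.0458). Of the 9 exposed animals 6 lay above the highest control, and the male of dam 9_9 was the lowest. The list's other enzymes did not share this difference. Gclc, Hmox1, Nqo1 and Txnrd1 had log2 fold changes of 0.02, -0.03, -0.19 and -0.005, each with p above 0.05. Bach1 (chr11:26939480-26972447), a repressor at antioxidant response elements, ranged from 41.5 to 56.1 CPM with a median of 46.0 in exposed animals and from 35.5 to 46.0 CPM with a median of 42.1 in controls (0.20 ± 0.06 SE, p = 0.00297, litter sums p = 0.0352). Its 3 highest values were again in the pups of dams 9_4 and 9_24, without these litters p was 0.0812, and without the male of dam 9_4 alone it was 0.00816. Bach2 ranged from 40.05 to 89.1 CPM against 34.5 to 73.6 CPM (0.31 ± 0.12 SE, p = 0.0203), with its highest value in dam 9_24. Creb1, which binds cyclic AMP response elements, ranged from 12.5 to 26.1 CPM with a median of 19.03 in exposed animals and from 12.9 to 21.9 CPM with a median of 15.6 in controls (0.25 ± 0.10 SE, p = 0.0244, litter sums p = 0.122). Mafk ranged from 18.7 to 22.1 CPM against 15.5 to 22.4 CPM (0.13 ± 0.06 SE, p = 0.0411), and all 9 exposed animals were above the control median. Without dams 9_4 and 9_24, 1 of the 18 genes had p < 0.05 (253 or 2.02% of all genes), and the list's median was again 0.02.

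Of 14 tested genes of neuronal progenitors and immature neurons, 5 had p < 0.05 with the higher mean in exposed animals (35.7% against 5.62% of all genes, list median 0.05). With counts summed per litter 1 of the 14 had p < 0.05, and with the litter as a random effect 0. Without dams 9_4 and 9_24, 1 of the 14 genes had p < 0.05 (2.02% of all genes in that fit) and the list's median was 0.07. Without the Hox slices 5 were higher and 2 lower (13.3% of all genes), with a median of 0.05. Without both, 1 gene had p < 0.05, with the lower mean (2.88% of all genes), and the median was 0.03. Sox11, a factor of newborn neurons, ranged from 173 to 381 CPM with a median of 246 in exposed animals and from 176 to 282 CPM with a median of 208 in controls (0.30 ± 0.11 SE, p = 0.0120). Sox4 and Neurod2, of the same stage, had log2 fold changes of 0.16 (p = 0.0221) and 0.24 (p = 0.0177). The values of Sox11 above the highest control were the pups of dams 9_4 and 9_24, and without these litters and the Hox slices its log2 fold change was 0.01 (p = 0.925). Of 18 tested genes of cortical and hippocampal neurons, 5 had the higher and 1 the lower mean at p < 0.05 (33.3% against 5.62% of all genes, median 0.13), and the litter fits held 0 and 1. Rorb of the granular layer and Tbr1 of the deep layers had log2 fold changes of 0.39 (p = 0.00882) and 0.22 (p = 0.0271). Without dams 9_4 and 9_24, 0 of the 18 genes had p < 0.05 (2.02% of all genes in that fit) and the median was 0.03, and without the Hox slices 10 had (13.3% of all genes) and the median was 0.19.

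The thalamic list leaned the other way, with 16 of 17 tested genes below 0 and a median log2 fold change of -0.39, and 4 genes had p < 0.05, all with the lower mean in exposed animals (23.5%, where 2.58% of all genes were lower). With counts summed per litter 0 of the 17 had p < 0.05, and with the litter as a random effect 4. Slc17a6, the glutamate transporter of subcortical synapses, ranged from 56.8 to 263 CPM with a median of 150 in exposed animals and from 105 to 285 CPM with a median of 243 in controls (-0.53 ± 0.24 SE, p = 0.0351). Foxp2 and Calb2 (calretinin) had log2 fold changes of -0.42 (p = 0.0207) and -0.39 (p = 0.0202). Tcf7l2, which defines thalamic neurons, was at 25.3 and 11.2 CPM in the pups of dam 9_4 and at 178 CPM in that of dam 9_24, at 293 to 521 CPM in the other exposed animals and at 131 to 589 CPM in controls (-0.65 ± 0.43 SE, p = 0.146). Without dams 9_4 and 9_24, 0 of the 17 genes had p < 0.05 (2.02% of all genes in that fit) and the median was -0.13. Only these exposed litters were left out, and they were picked after their low sums of this same list were seen. A smaller difference without them follows from that choice, so no conclusion is drawn from it. In bulk slices, a slice cut at another place, fewer cells of a type and less RNA per cell cannot be told apart.

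Of 21 tested genes of GABA synthesis, receptors and chloride transport, 3 had p < 0.05, all with the lower mean in exposed animals (14.3% against 5.62% of all genes, median -0.16). Gabra5, a receptor subunit enriched in hippocampus, ranged from 112 to 176 CPM with a median of 130 in exposed animals and from 133 to 179 CPM with a median of 170 in controls (-0.22 ± 0.08 SE, p = 0.0133), and 5 exposed animals lay under the lowest control. Gabrg1 had a log2 fold change of -0.28 (p = 0.0214). Of 23 glutamate receptor genes, 2 had the higher and 2 the lower mean at p < 0.05 (median -0.09). Grin3b, an NMDA receptor subunit that lowers calcium entry, ranged from 14.2 to 32.4 CPM with a median of 19.3 in exposed animals and from 10.6 to 23.04 CPM with a median of 12.8 in controls (0.45 ± 0.15 SE, p = 0.00646, litter sums p = 0.0122). Grin2b, the NMDA subunit of young synapses, had medians of 65.6 and 47.5 CPM (0.31 ± 0.12 SE, p = 0.0169), and Gria4, an AMPA receptor subunit, medians of 100.4 and 140 CPM (-0.29 ± 0.11 SE, p = 0.0112). Of 40 genes of synaptic vesicles and release, 1 had the higher and 4 the lower mean at p < 0.05, among them Amph (-0.22) and Napb (-0.25). Without dams 9_4 and 9_24, 0 glutamate receptor genes, 0 vesicle genes and 1 GABA gene had p < 0.05, where 2.02% of all genes had, and the medians were 0.00, -0.01 and -0.03. Without the 3 Hox slices the counts were 10, 14 and 9, where 13.3% of all genes had p < 0.05. Of 26 tested postsynaptic scaffold and adhesion genes 0 had p < 0.05 (median -0.02).

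Interneuron and peptide genes gave a few small p-values. Npy, neuropeptide Y, ranged from 30.8 to 113 CPM with a median of 60.3 in exposed animals and from 31.8 to 78.9 CPM with a median of 46.8 in controls (0.56 ± 0.19 SE, p = 0.00835). Crh, corticotropin-releasing hormone, ranged from 3.19 to 7.21 CPM against 2.88 to 5.21 CPM (0.42 ± 0.14 SE, p = 0.00531, litter sums p = 0.0270), with 8 of 9 exposed animals above the control median. Lhx6, which specifies interneurons of the medial ganglionic eminence, had a log2 fold change of 0.31 (p = 0.0128). The striatum and interneuron list had 3 genes higher and 1 lower at p < 0.05 of 20 tested (median 0.07). Of the 20, 13 were above 0 and 7 below, among the latter Nkx2-1 (-0.24) and Pvalb (-0.50). The list's median was 0.22 without dams 9_4 and 9_24, with 1 gene at p < 0.05 (2.02% of all genes). Without the Hox slices alone it was 0.01, with 5 genes higher and 1 lower (13.3% of all genes). Without both it was 0.36, with 6 genes at p < 0.05, all higher, where 2.88% of all genes had p < 0.05. The litter fits held 1 gene each. In the first batch, described further on, the median was -0.04 with 0 of 19 genes at p < 0.05. The hypothalamic peptide list had 2 higher of 17 (median -0.07).

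Of the Hox list, 10 of 30 members passed the expression filter, and they passed it through the 3 exposed slices that held them. Hoxa5 was at 6.87, 14.8 and 34.9 CPM in these slices, at most 0.626 CPM in the other exposed animals and at most 0.404 CPM in controls. Hoxb8 was at 7.24, 9.55 and 6.98 CPM in them, at 0.654 CPM in the female of dam 9_19, at 0 in the other exposed animals and at 0.0647 CPM in 1 control, with 0 in the other 11. Mobp, a gene of mature myelin, was at 3.22 and 1.67 CPM in the pups of dam 9_14 and at most 0.45 CPM elsewhere. Of 19 tested genes of the oligodendrocyte lineage, 3 had p < 0.05 (median 0.03), Mbp and Mobp among them, and without the Hox slices 0 had the higher mean at p < 0.05.

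Immune genes gave little. Of 5 tested cytokine genes, 20 genes of interferon response and antigen presentation, 6 Fc receptors and 10 mast cell genes, 0 had p < 0.05. The cytokine list held 29 genes, and only Il12a, Egf, Vegfa, Il18 and Cx3cl1 were tested. For its other genes, nothing is shown in either direction. The interferon-induced Isg15 was at 1.29 to 2.14 CPM in exposed animals and 0.291 to 2.01 CPM in controls (0.45 ± 0.22 SE, p = 0.0540). Of 23 microglia and complement genes, 2 had p < 0.05, both with the higher mean (8.70% against 5.62% of all genes, median 0.23). Without dams 9_4 and 9_24 the median was -0.01 with 0 genes at p < 0.05, without the Hox slices 0.42 with 5, and the litter fits held 0. They included Lyve1, a marker of border macrophages and lymphatic vessels, at 1.96 to 11.8 CPM against 1.00 to 8.60 CPM (0.85 ± 0.40 SE, p = 0.0443). Flt1, a VEGF receptor of endothelium, was the only vascular gene of 21 with p < 0.05 (0.24 ± 0.10 SE, p = 0.0215). Choroid plexus genes had the largest list median outside the Hox list and the mast cell list (0.49), yet 0 of 19 had p < 0.05. Their summed level ranged from 514 to 2553 CPM in exposed animals and from 285 to 3311 CPM in controls. The list's median was 0.28 without dams 9_4 and 9_24 and 0.79 without the Hox slices. In the first batch, described further on, it was 0.52, with 5 of 18 genes higher at p < 0.05, where 5.45% of all genes had p < 0.05. Summed levels were lower there, at 115 to 730 CPM in exposed animals and 111 to 212 CPM in controls. Meningeal genes had a median of 0.30 with 0 genes at p < 0.05, 0.01 with 0 genes without dams 9_4 and 9_24, and 0.54 with 3 genes without the Hox slices. Mast cell genes had medians of 0.52, -0.04 and 0.77 in the same order. Red cell genes had a median of 0.36 with 0 genes at p < 0.05, and 0.37 and 0.48 in the other fits.

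Further lists are given by their genes at p < 0.05, to be read against 5.62% of all genes. Radial glia and astrocytes had 0 of 23, the unfolded protein response 0 of 21, cytosolic ribosomal proteins 0 of 74 and pineal genes 0 of 9. The cell cycle list had 3 higher and 1 lower of 43 (9.3%), with Mcm4, a replication helicase subunit, at a log2 fold change of 0.19 (p = 0.0146). Wnt genes had 3 higher and 1 lower of 37 (10.8%). They were led by Sfrp2, a secreted Wnt modulator, at 11.2 to 14.9 CPM in exposed animals and 12.2 to 19.8 CPM in controls (-0.26 ± 0.08 SE, p = 0.00515). Neurotrophins and growth factors had 3 higher and 1 lower of 20 (20%). Without dams 9_4 and 9_24, 0 cell cycle genes, 1 Wnt gene and 0 genes of this list had p < 0.05, where 2.02% of all genes had. Igf2bp3, an RNA-binding protein of fetal tissue, and Ngfr, the p75 neurotrophin receptor, had log2 fold changes of 0.39 (p = 0.00782) and 0.36 (p = 0.0219), whereas Bdnf had -0.44 (p = 0.0376). Of 23 immediate early genes only Nr4a1 had p < 0.05, at 8.05 to 10.99 CPM against 8.61 to 13.99 CPM (-0.30 ± 0.09 SE, p = 0.00362), and all 9 exposed animals were below the control median. Of 22 tested autism-linked chromatin regulators, 2 (9.09%) had the higher mean at p < 0.05, Tbr1 and Ehmt1.

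**Figure D4:**
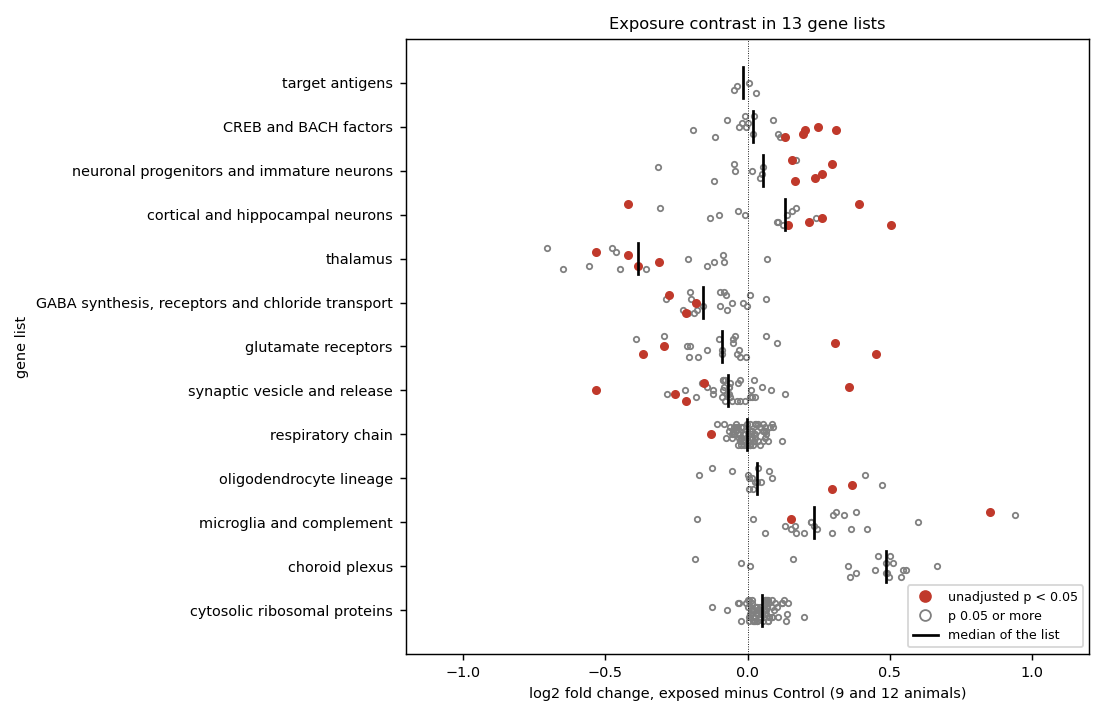
Log2 fold change (exposed minus control, 9 and 12 animals) of each tested member of 13 gene lists, with red points for unadjusted p < 0.05, open points for other members and a black bar for the median of the list. Of the members, Mobp alone lies outside the axis. The median bar of the thalamic list lies to the left of 0, those of the choroid plexus and microglia lists to the right, and the target antigens near 0.

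The same antibody pattern was sequenced in the first batch in 16 exposed and 12 control animals that share no animal with these. There edgeR called 2 genes (Creb1 and Dnajc3) at FDR < 0.1 (0.0161% of 12415) and 677 (5.45%) at unadjusted p < 0.05. The thalamic list had a median log2 fold change of -0.10 there with 0 of 16 genes at p < 0.05. The cortical and hippocampal list had 0.07 with 0 of 18, and the red cell list -0.27 with 1 of 9, lower. The CREB and BACH list had 0.02 with 4 of 18, all higher. Over 12317 genes tested in both batches, log2 fold changes had the same sign in 58.4% of genes (Pearson r = 0.17 across genes, which are not independent). Of the 683 genes with p < 0.05 in the second batch, 501 had the same sign in the first. In both batches 82 genes had p < 0.05 (12.0% of those of the second batch and 12.1% of those of the first), 54 with the higher mean in both, 21 with the lower in both and 7 with opposite signs.

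Among the 54 were Grin3b (0.45 in the second batch and 0.28 in the first), Bach1 (0.20 and 0.16), Podxl, a sialomucin of vessels and neurites (0.20 and 0.16), the ephrin ligand Efna2 (0.21 and 0.18), the histone H4 methyltransferase Kmt5a (0.16 and 0.16) and Sox11 (0.30 and 0.31). Creb1 had log2 fold changes of 0.25 and 0.35, Bach2 of 0.31 and 0.25 and Mafk of 0.13 and 0.15. Among the 21 were Mt1, a metallothionein (-0.31 in the second batch and -0.50 in the first), Atp1b1, a sodium pump subunit (-0.14 and -0.13), Vsnl1, a neuronal calcium sensor (-0.31 and -0.15), the fatty acid desaturase Scd (-0.22 and -0.17), Tuft1 (-0.32 and -0.29) and Hsd11b1, which regenerates glucocorticoids (-0.41 and -0.41). Mt1 ranged from 4.92 to 7.17 CPM with a median of 5.15 in the 9 exposed animals and from 5.04 to 8.68 CPM with a median of 6.40 in controls. Hsd11b1 was at 3.42 to 9.99 CPM against 6.02 to 8.64 CPM, with 6 exposed animals under the lowest control and 2 above the highest. The study picked several of these genes from both batches of animals, so their repeated direction is not independent evidence. Of the 75 genes of like sign, 19 had p < 0.05 with counts summed per litter in the second batch (1.17% of all genes). Without dams 9_4 and 9_24, 10 had p < 0.05 (2.02% of all genes) and 74 retained their sign. The 75 genes were picked by p in these same animals, which largely fixes the sign and raises these counts. No conclusion is drawn from them. Gclm had a log2 fold change of 0.20 in the second batch and 0.00 in the first (p = 0.992), and leading genes such as Klhl14 (0.06), Tgfb2 (0.02), Micu2 (0.02), Psmd1 (-0.01) and Dlat (0.01) had first-batch values near 0. Vegfd, Lnx2, Pag1 and Dld were also not among the 82 genes with p < 0.05 in both batches.

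**Figure D5:**
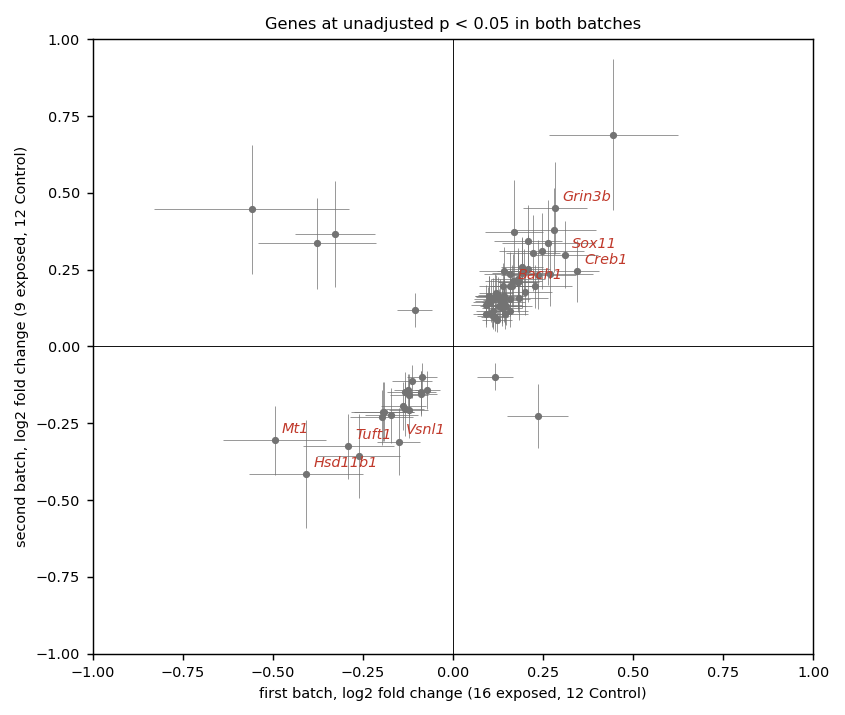
Log2 fold change of exposed against control animals in the first batch (x axis) and in the second (y axis) for genes with unadjusted p < 0.05 in both, with bars of 1 SE. Of 82 genes 80 are drawn and 2 lie outside the axes. Most points lie in the upper right and lower left.

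Whether the exposure effect differed between the batches was tested directly in 49 animals. The test called 14 genes of 12700 at FDR < 0.1 (0.11%, with 387 genes at unadjusted p < 0.05), among them 10 Hox genes, the glycine transporter Slc6a5, Lbx1, Pax2 and Dbh, all genes of hindbrain, spinal cord or noradrenergic neurons. Apart from Slc6a5, each was above 1 CPM in at most 1 slice other than the 4 with summed Hox genes above 10 CPM, which were 3 exposed slices of the second batch and 1 control of the first, at 87.5 CPM. These 13 genes thus passed the expression filter through those slices, and a difference between the batches is not shown for them beyond these slices. Without the 4 slices, 1 of the 14 genes was still tested and the test called 0 genes, as it did with counts summed per litter and with a filter of 1 CPM in 8 samples, where also 1 of the 14 was tested. Slc6a5 was at 8.22, 14.7 and 52.4 CPM in the 3 exposed slices and at 0.284 to 2.14 CPM in the other exposed animals.

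The exposure effect was also compared between males and females, and 0 genes differed at FDR < 0.1 in edgeR (384 or 3.05% at unadjusted p < 0.05), whereas DESeq2 called LOC100911498 alone. The smallest p-values belonged to LOC100911498, Drd1 and Sde2. LOC100911498 rests on the male of dam 9_4 described above. Drd1, the D1 dopamine receptor, had a log2 fold change of 0.94 in males (p = 9.74e-04) and of -0.19 in females (p = 0.247), a difference of 1.13 ± 0.28 SE (p = 6.05e-04). Male controls were mostly the 4 pups of dam 9_25, at 5.75 to 8.13 CPM, so that sex and litter cannot be told apart there. Vegfd had log2 fold changes of 1.16 in males and 0.78 in females, and Lnx2 of 0.47 and 0.16.

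The other 3 antibody patterns of the second batch were set against the same 12 controls, so the comparisons share those animals and are given only side by side, from a fit over all 43 animals of the batch. Lnx2 had log2 fold changes of 0.31 for LDHA/B+CRMP1+STIP1, 0.33 for CRMP1+CRMP2, 0.26 for CRMP1+GDA and 0.04 for STIP1+NSE. Vegfd had 0.96, 0.51, -0.12 and 0.41 in the same order, and Pag1 0.37, 0.54, 0.12 and 0.18. Dld had -0.13, -0.08, -0.08 and -0.01, and Micu2 -0.25, -0.23, -0.09 and -0.19. Bach1 had 0.20, 0.25, -0.03 and 0.03, and Gclm 0.20, 0.18, 0.08 and 0.18.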

How the data were processed

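Poly-A RNA-seq libraries of single offspring were sequenced in 2 batches. The authors aligned reads to rat build rn7 with STAR 2.5.4b and summarised them over genes with featureCounts (options not given in the sources used here). The deposited table holds these raw counts for 17494 genes and, as the other unit, each gene's exonic length in bases. Of the counts from 1 to 9, 73.6% were even. If each end of a read pair was counted, which was not tested, a CPM is worth fewer fragments. With all counts halved, 716 genes had p < 0.05 and 0 passed FDR < 0.1. Groups, litters and sexes come from the labels and batches from sample titles. Genes with over 1 CPM in at least 2 of the 21 samples were tested in R 4.3.3 with edgeR 4.0.16 (TMM, robust quasi-likelihood, sex as covariate, Benjamini-Hochberg, FDR < 0.1). Animals are the replicates in this fit, although littermates are not independent. The 2 most similar libraries differed by more than sampling noise (chi-square per gene 5.69). Levels are TMM-scaled CPM. Alternatives used DESeq2 1.42.0, limma 3.58.1 (voom with litter as a random effect), sva 3.50.0, counts summed per litter, other filters, normalizations and covariates, and litters left out. The procedure was tested on simulated data. The comparison, the gene lists and the named genes were chosen with earlier results of these data known. Genes were named by smallest p in each direction (12 by animal, 6 by litter sum, up to 3 per list, 6 shared between batches, 4 for the batch and 3 for the sex difference), with Tcf7l2 and a few further genes chosen after their values were seen. A few genes that these rules name are not reported here. Promoters are from RefSeq (GRCr8), and no coordinates were converted between builds.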

Additional observations from a re-analysis of the deposited data

Results flagged for a closer look

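In the 9 exposed animals, 91 levels (named genes and marker sums) were examined for 1 animal far from the rest, a rule that chance meets in about 1 of 20 groups, and 9 met it. Klhl14 reached 25.8 CPM in the female of dam 9_4 (next 17.6 CPM). Grin3b reached 32.4 CPM in the animal of dam 9_24 (next 21.5 CPM). Lowest in 1 animal were Gclm at 18.4 CPM (next 21.3 CPM), Atp1b1 at 552 CPM (next 695 CPM) and Lamp1 at 206 CPM (next 236 CPM). The female of dam 9_14 stood alone for Hoxa5 at 34.9 CPM (next 14.8 CPM), Hoxb5 at 38.1 CPM (next 6.33 CPM), the spinal and hindbrain gene Slc6a5 at 52.4 CPM (next 14.7 CPM) and summed Hox genes at 166 CPM (next 50.2 CPM).

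The exposure effect differed between the batches by the test of that difference (edgeR, FDR < 0.1) for 14 genes. The fitted differences, second batch minus first on the log2 scale, were 14.69 for Hoxb5, 12.15 for Hoxa5, 11.78 for Hoxc4, 10.37 for Hoxb4, 10.53 for Hoxa4, 9.49 for Hoxd3, 8.41 for Hoxd4, 8.38 for Hoxa2, 12.00 for Hoxb8, 11.36 for Hoxa3, 4.52 for Slc6a5, 8.09 for Lbx1, 7.58 for Pax2 and 3.08 for Dbh. Where a group is near 0 these sizes depend on the prior count and are no measured fold. Of the 14 genes, 13 passed the expression filter through 4 slices with Hox genes above 10 CPM, so the difference is not shown beyond those slices. Without them, with counts summed per litter and with a filter of 1 CPM in 8 samples, 0 genes were called.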

How the results depend on the processing

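The count of DE genes in the exposure contrast was 0 and moved to 3 with a likelihood ratio test (Hoxb7, Vegfd and Hoxb8), 3 with a surrogate variable, 3 with a choroid plexus score, 2 with a pineal score, 6 with a thalamus score (all Hox genes), 2 with both batches together (Hoxb7 and Creb1) and 2 without dams 9_4 and 9_24 (Hoxb8 and Hoxa5). The count at p < 0.05 was 706 and moved to 147 with counts summed per litter and 149 with the litter as a random effect. It was 869 with a surrogate variable, 407 with a pineal score, 279 with a thalamus score and 1085 with both batches. In males alone it was 940 and in females alone 245. It was 1662 without the 3 Hox slices, 253 without dams 9_4 and 9_24, 360 without both and 427 without the male of dam 9_4. Leave-one-out over the 9 litters gave 0 to 2 DE genes and 349 to 1626 genes at p < 0.05, lowest without dam 9_4 and highest without dam 9_9. It was 1343 without dam 9_5, 463 without dam 9_24 and 399 without dam 9_25. Fits that leave out slices or litters, and the thalamus score, were added after seeing the data. The batch difference (14 genes) fell to 6 with DESeq2 and to 0 with litter sums, with a filter of 1 CPM in 8 samples and without the 4 Hox slices. The first batch (2 genes) gave 0 with litter sums and 7 with DESeq2, and the sex difference (0) gave 1 with DESeq2. The cause of these moves was not tested. The difference in library size was 464533 counts over litter means (p = 0.754, exact permutation test).

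Of 82 genes examined in the exposure contrast, 74 kept their sign in every fit run. Most of the 82 were picked by small p in these same animals, which the fits largely share. A kept sign is therefore no independent support for a difference. For Hoxb8, Hoxa5, Hoxb5, Vegfd and Creb1, 20 values passed FDR < 0.1 only under an alternative. The antigen genes, all near 0 in the fit reported, turned sign in some fits. Ldha ranged over -0.11 to 0.0042, Ldhb over -0.096 to 0.022, Crmp1 over -0.036 to 0.055 and Stip1 over -0.040 to 0.054 when litters were left out in turn. Ldhb was 0.012 without the Hox slices and dams 9_4 and 9_24. Crmp1 was -0.0049 with a pineal score, -0.041 with a thalamus score, -0.012 in males, -0.0025 without the single-sex control litters, -0.030 without dams 9_4 and 9_24 and -0.035 without these and the Hox slices. Stip1 was -0.023 with litter sums, -0.017 with the litter as a random effect, -0.042 with a surrogate variable, -0.025 with a choroid plexus score, -0.031 with a pineal score, -0.036 with a thalamus score, -0.10 without the single-sex litters, -0.012 without dams 9_4 and 9_24 and -0.0032 without the male of dam 9_4. With both batches together, Hoxb5 was -0.020 and Mobp -0.074. Without the Hox slices Slc6a5 was -0.83 (-0.33 when dams 9_4 and 9_24 were also left out), and Tcf7l2 was 0.0055 with a thalamus score. No paired analysis was possible because replicate numbers only follow the order of the samples and link no exposed animal to a control.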
